A study of Homo sapiens with 24 samples.

Results

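The genes described here are 10 immediate early and AP-1 related genes, FOS, FOSL2, JUN, JUNB, JUND, EGR1, IER2, IER3, ATF3 and MAFF, taken from a list of names with no threshold on their values, out of 58721 gene rows. They were followed in HepG2 cells, a line established from a human liver cancer. The cells had received control siRNA (siControl) or siRNA to 1 of the genes IGF2BP1, IGF2BP2 and IGF2BP3, whose products bind RNA and form a family. Each of these 4 conditions was collected at 0, 3 and 6 h of actinomycin D (5 µg/ml), which blocks transcription, with 2 libraries in each of the 12 groups and 24 libraries in all. The comparisons ask whether the siRNAs changed the level of these transcripts before the drug, and how the transcripts were lost once synthesis had been stopped. All cells were grown with 10% serum, and the labels name no serum or growth factor pulse. Per the methods, the plates of the different time points were re-seeded from a shared transfected plate 6 h after transfection and left for 48 h. The study calls its replicates independent, but neither it nor the labels say that the 2 libraries of a group came from separate cultures. The p-values thus measure only the spread between these libraries, which edgeR pools over genes. Since these are bulk samples, fewer cells that express a gene and less RNA per cell cannot be told apart.

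Immediate early genes are switched on by growth factor and stress signals without new protein synthesis, and their mRNAs are known for rapid decay, which limits each burst of expression. FOS and FOSL2 pair with JUN, JUNB or JUND to form AP-1, a leucine zipper transcription factor, and the JUN proteins can also pair with themselves or with ATF3. ATF3 is a stress-induced member of the same zipper class, MAFF is a small MAF protein without a transactivation domain, EGR1 is a zinc finger factor induced through serum response factor, and IER2 and IER3 are short early response genes, of which IER3 acts in cell survival. Many such mRNAs carry AU-rich elements, repeats of AUUUA in the 3′ untranslated region (3′ UTR) that are bound by decay factors such as ZFP36.

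Most of the genes are compact. In GENCODE annotation of GRCh38 (hg38), JUN (chr1:58776845-58784048, minus strand), JUNB (chr19:12791486-12793315, plus strand) and JUND (chr19:18279694-18281622, minus strand) have a canonical transcript of 1 exon, as do 4.28% of canonical coding transcripts. EGR1 (chr5:138465479-138469303, plus strand), IER2 (chr19:13150411-13154911, plus strand) and IER3 (chr6:30743199-30744548, minus strand) have 2 exons, MAFF (chr22:38200767-38216507, plus strand) has 3, and FOS (chr14:75278826-75282230, plus strand), FOSL2 (chr2:28392448-28417317, plus strand) and ATF3 (chr1:212565334-212620777, plus strand) have 4, against a median of 8 over all canonical coding transcripts. Exons of 4 of the genes overlap exons on the opposite strand, JUNB with HOOK2 over 259 bp, MAFF with PLA2G6 over 326 bp, IER3 with the noncoding IER3-AS1 and HCG20 over 525 bp in all, and IER2 with noncoding genes over 1608 bp. The reads were aligned as stranded, but the strand setting of the counting is not given in the sources used here, so reads of these 4 genes and of their antisense partners cannot be told apart with certainty.

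The 3′ UTRs differ widely in AU-rich content, and their ATTTA-bearing stretches are shown because the motif is the best known sequence feature of short-lived early mRNAs. IER3 has 6 copies of ATTTA in 737 bp (8.14 per kb) and FOS has 5 in 806 bp (6.2 per kb), whereas 3.2% and 8.1% of UTRs of like length hold at least as many. The median over 19228 canonical 3′ UTRs was 1.52 per kb, and 67.8% held at least 1 copy. JUNB has 2 copies (4 per kb), ATF3 3 (2.46 per kb), MAFF 4 (2.46 per kb), JUN 3 (2.34 per kb), FOSL2 9 in a long UTR of 4869 bp (1.85 per kb), JUND 1 (1.34 per kb), EGR1 1 (0.82 per kb) and IER2 none. The windows below are 30 bases of the sense strand on GRCh38, written 5′ to 3′ with ATTTA in capitals. FOS (chr14:75282048-75282077) and IER3 (chr6:30743654-30743683) are the 2 with the densest copies, MAFF (chr22:38216391-38216420) and JUND (chr19:18280009-18280038) are members that were lost slowly, and EGR1 (chr5:138469051-138469080) carries its only copy here.
FOS: aacgttttattgtgtttttaATTTATTTAt
IER3: tgctcctaattaatATTTAtatgtATTTAt
MAFF: aatattgcccggctcctagaATTTATTTAt
JUND: gaacagagtgttcgattctgccctATTTAt
EGR1: tctatttttttaactgaaaatgtaaATTTA

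Promoter windows from RefSeq (GRCh38.p14, 250 bases before to 50 after the start site) were matched by symbol for 9 of the 10 genes and searched on both strands for the CArG box, which binds serum response factor, for the AP-1 site TGACTCA, for the CRE TGACGTCA and for the EGR1 site GCGGGGGCG, which do not overlap in these windows. EGR1 held 2 CArG boxes, at positions -105 and -83 from its start site, and 1.29% of 35116 promoters held any. FOSL2 held TGACTCA at position 4, found in 4.95% of promoters. JUND at position -200 and MAFF at position -54 held TGACGTCA, found in 1.85% of promoters. The EGR1 site, present in 5.07% of promoters, was in none of these windows, and those of FOS, JUN, JUNB, IER2 and ATF3 held none of the 4 motifs. Only exact matches inside the window were counted, so sites further upstream or with a changed base would be missed. The EGR1 boxes (chr5:138465364-138465393 and chr5:138465386-138465415, plus strand) and the MAFF site (chr22:38201929-38201958, plus strand) are printed with the motif in capitals, as the genes whose 0 h levels are followed in the next comparisons.
EGR1 at -105: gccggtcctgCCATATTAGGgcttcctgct
EGR1 at -83: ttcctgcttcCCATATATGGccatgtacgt
MAFF at -54: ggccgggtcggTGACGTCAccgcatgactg

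Depth was 31843248 to 74252042 gene reads per library, with 50889 to 119088 reads of the ERCC spike-in. The siRNA targets fell as labelled, to 20.9% (IGF2BP1), 26.1% (IGF2BP2) and 35.4% (IGF2BP3) of the siControl level at 0 h. Levels are given in CPM, reads of a gene scaled to a library size of 1e+06 gene reads. In some library 1 CPM was reached by all 10 hepatocyte markers, 1 of 4 leukocyte, 1 of 4 fibroblast and all 3 endothelial markers. The summed hepatocyte level was 66410 to 98220 CPM per library. Summed leukocyte (0.994 to 2.41 CPM), fibroblast (5.01 to 13.2 CPM) and endothelial (0.934 to 2.70 CPM) markers stayed low. All 10 early genes passed the filter (CPM of at least 1 in 2 libraries), as did 13136 genes.

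In siControl cells at 0 h the AP-1 components were far apart in level. Per kb of exon, JUND was the highest at 55.2 ± 2.33 CPM per kb (SD, n = 2), above 95.5% of 13094 genes with a length, followed by JUN at 20.9 ± 1.56 CPM per kb (SD, n = 2). IER2 (10.5 ± 0.0990), IER3 (8.76 ± 0.238), EGR1 (4.29 ± 0.858) and JUNB (3.14 ± 0.0700) came next, all in CPM per kb (SD, n = 2). MAFF (1.61 ± 0.00566), FOSL2 (1.61 ± 0.157) and ATF3 (1.5 ± 0.149) lay within 1 SD of each other on this scale. FOS, the founding AP-1 partner, was the lowest at 0.426 ± 0.0167 CPM per kb (SD, n = 2), above 8.1% of genes, with 80 and 98 reads in the 2 libraries. Apart from MAFF, FOSL2 and ATF3, the 2 libraries of each gene did not overlap with those of its neighbours in this order.

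**Figure D1:**
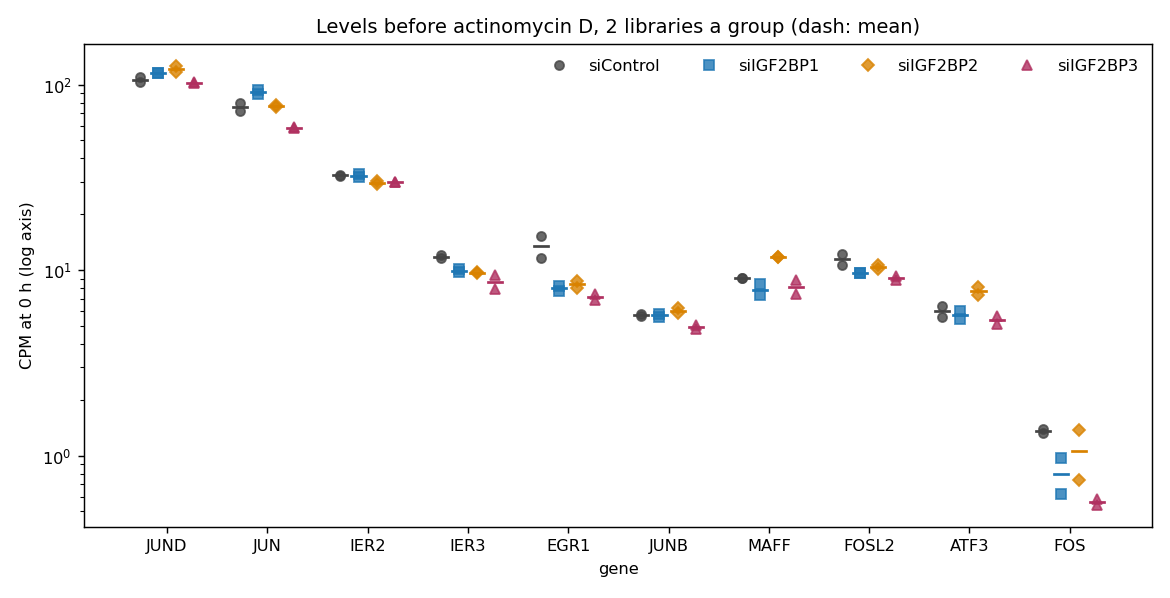
Levels at 0 h in CPM (log axis) for the 10 genes, ordered by their siControl level per kb, with 1 point per library and a dash at the mean of 2 libraries in each condition. JUN separates siIGF2BP1 (94.1 and 89.5 CPM) from siIGF2BP3 (58.5 and 58.9 CPM), and EGR1 is highest in the siControl libraries (15.4 and 11.6 CPM).

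JUN, the core AP-1 subunit, differed most clearly between the knockdowns before the drug. It stood at 79.7 and 71.7 CPM in the siControl libraries, 94.1 and 89.5 after siIGF2BP1, 75.9 and 77.6 after siIGF2BP2, and 58.5 and 58.9 after siIGF2BP3. The siIGF2BP1 libraries were thus above all others and the siIGF2BP3 libraries below all others, while siIGF2BP2 lay within the siControl range. Against siControl, JUN was 0.30 higher on the log2 scale after siIGF2BP1 (SE 0.073, edgeR adjusted p = 0.0028) and lower after siIGF2BP3 (log2 difference -0.36, SE 0.074, edgeR adjusted p = 0.00077), and 0.03 apart in siIGF2BP2 (95% interval -0.12 to 0.17). Without siControl replicate 2 the siIGF2BP1 difference was 0.22 (edgeR adjusted p = 0.131), without siIGF2BP1 replicate 1 it was 0.27 (edgeR adjusted p = 0.0689), and without siControl replicate 1 the siIGF2BP3 difference was -0.28 (edgeR adjusted p = 0.0697). On the ERCC scale these 2 differences were 0.26 and -0.29 (edgeR adjusted p = 0.101 and 0.0752).

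The difference between knockdowns themselves was larger and did not involve the control libraries. JUN was lower in siIGF2BP3 than in siIGF2BP1 by a log2 difference of -0.66 (SE 0.074, edgeR adjusted p = 1.85e-08), a 1.58-fold difference, and lower than in siIGF2BP2 by -0.39 (SE 0.074, edgeR adjusted p = 0.00027). Both calls held without each of the 0 h libraries in turn, with ranges of -0.68 to -0.62 and -0.39 to -0.35. JUN was also lower in siIGF2BP2 than in siIGF2BP1 (log2 difference -0.27, SE 0.073, edgeR adjusted p = 0.00617), a call that was lost without siIGF2BP1 replicate 1 (edgeR adjusted p = 0.08), without siIGF2BP2 replicate 1 (0.0689) and on the ERCC scale (-0.16, edgeR adjusted p = 0.289).

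EGR1 was lower in every knockdown. The siControl libraries gave 15.4 and 11.6 CPM, those of siIGF2BP1 8.22 and 7.71, those of siIGF2BP2 8.78 and 7.98 and those of siIGF2BP3 6.87 and 7.40. No knockdown library reached either siControl library, but the siControl libraries differed by more than any knockdown pair. The log2 differences were -0.73 (SE 0.193, edgeR adjusted p = 0.0061), -0.67 (SE 0.192, edgeR adjusted p = 0.0151) and -0.91 (SE 0.196, edgeR adjusted p = 0.0014), and all 3 comparisons share the siControl libraries. Without siControl replicate 1 they were -0.51, -0.45 and -0.69, and none was called (edgeR adjusted p = 0.225, 0.357 and 0.117). The siIGF2BP1 and siIGF2BP2 calls were also lost when either library of that knockdown was left out (edgeR adjusted p of 0.0517 to 0.147). Between knockdowns EGR1 differed by -0.24 to 0.06 (log2), with no call.

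**Figure D2:**
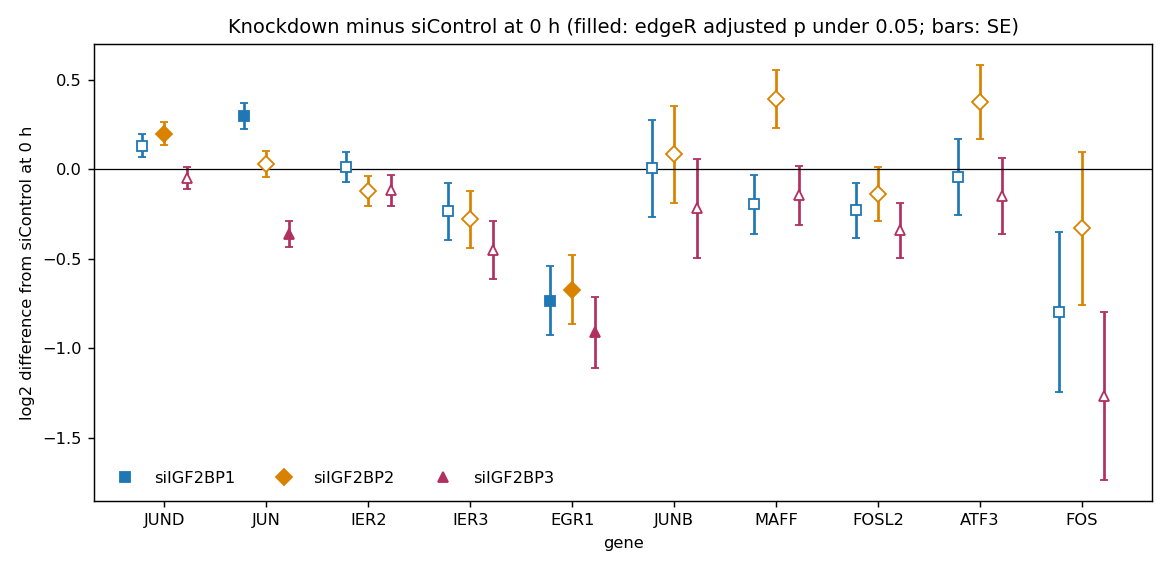
Log2 difference from siControl at 0 h for each gene and knockdown (edgeR, TMM scale), with bars of 1 SE and filled symbols for an adjusted p under 0.05. EGR1 is filled in all 3 knockdowns, JUN is filled above 0 in siIGF2BP1 and below 0 in siIGF2BP3, and FOS has the widest bars.

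JUND, the JUN family member that was lost most slowly, and the small MAF gene MAFF had their highest 0 h means in siIGF2BP2. JUND was at 103 and 110 CPM in siControl, 115 and 115 in siIGF2BP1, 126 and 117 in siIGF2BP2, and 102 and 103 in siIGF2BP3. It was 0.20 higher (log2) in siIGF2BP2 than in siControl (SE 0.062, edgeR adjusted p = 0.0261), and lower in siIGF2BP3 than in siIGF2BP1 (-0.18, SE 0.063, edgeR adjusted p = 0.0457) or siIGF2BP2 (-0.25, SE 0.062, edgeR adjusted p = 0.00624). The calls are fragile. The first 2 were lost without each of the 4 libraries compared in turn (edgeR adjusted p of 0.0505 to 0.386), the third without siIGF2BP2 replicate 1 (-0.18, edgeR adjusted p = 0.23) or either siIGF2BP3 library (0.106 and 0.0641). On the ERCC scale siIGF2BP3 differed from siIGF2BP1 by -0.07 (edgeR adjusted p = 0.705) and from siIGF2BP2 by -0.25 (edgeR adjusted p = 0.133), and DESeq2 did not call siIGF2BP2 against siControl (adjusted p = 0.0531).

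MAFF stood at 11.8 CPM in both siIGF2BP2 libraries, against 9.07 and 9.02 in siControl, 7.31 and 8.39 in siIGF2BP1, and 8.80 and 7.45 in siIGF2BP3. The siIGF2BP2 libraries were above all others. The log2 difference was 0.58 against siIGF2BP1 (SE 0.165, edgeR adjusted p = 0.00929), and siIGF2BP3 was lower than siIGF2BP2 by -0.54 (SE 0.165, edgeR adjusted p = 0.0317), while 0.39 against siControl was not called (SE 0.161, edgeR adjusted p = 0.121). Without siIGF2BP1 replicate 1 the former was 0.47 (edgeR adjusted p = 0.168) and without either siIGF2BP2 library 0.57 (0.0669 and 0.0612), and the latter was lost without each of the 4 libraries compared in turn, with values of -0.64 to -0.41.

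The other 6 genes gave no call at 0 h in any of the 6 comparisons when all libraries shared the fit. FOS was at 1.40 and 1.32 CPM in siControl, at 0.622 and 0.968 in siIGF2BP1, at 1.38 and 0.740 in siIGF2BP2, and at 0.542 and 0.583 in siIGF2BP3, where the 2 libraries held 30 and 23 reads. Its differences from siControl were -0.80, -0.33 and -1.27 (log2, SE 0.426 to 0.469, edgeR adjusted p = 0.265, 0.728 and 0.0884), and its siIGF2BP1 and siIGF2BP3 libraries did not overlap the siControl ones. IER3 was at 12.1 and 11.6 CPM in siControl and at 7.92 to 10.1 in the 6 knockdown libraries (log2 -0.23, -0.28 and -0.45, edgeR adjusted p = 0.387, 0.310 and 0.0776). FOSL2 gave 12.3 and 10.7 CPM in siControl and 8.82 to 10.7 in the knockdowns. IER2 spanned 29.3 to 33.0 CPM and JUNB 4.81 to 6.27 CPM over all 8 libraries. ATF3 was at 7.36 and 8.12 CPM in siIGF2BP2 and at 5.12 to 6.42 CPM in the other 6 libraries, with a log2 difference from siControl of 0.38 (SE 0.207, edgeR adjusted p = 0.285).

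By count, 2 of the 10 genes were called at 0 h in each knockdown, 1 higher and 1 lower after siIGF2BP1 and again after siIGF2BP2, and both lower after siIGF2BP3, while 15.9%, 12.1% and 9.39% of all tested genes were called in the same comparisons. These counts depend on the fit. They were 3, 5 and 5 when only the compared groups were fitted. The shares above belong to the fit of all libraries, and those of the smaller fits are not given here. Without each of the 0 h libraries compared in turn the counts did not rise, and each fell in some of the fits. Between knockdowns the count was 2 in siIGF2BP2 against siIGF2BP1, 2 in siIGF2BP3 against siIGF2BP1 and 3 in siIGF2BP3 against siIGF2BP2, beside 18.7%, 14.3% and 9.19% of all genes. The median log2 difference from siControl of the 10 genes was -0.12, -0.05 and -0.28 in siIGF2BP1, siIGF2BP2 and siIGF2BP3, beside 0.01, 0.02 and 0.00 over all genes.

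After actinomycin D, transcripts were scaled to the ERCC total of each library, and all 10 genes fell within 3 h in every condition. In siControl cells 10 of 10 were called lower from 0 to 3 h, as were 61.3% of all genes. The median log2 change of the 10 genes was -3.42 beside -0.44 over all genes, and the median in siIGF2BP1, siIGF2BP2 and siIGF2BP3 was -3.35, -3.01 and -3.22. The corresponding shares of all genes called lower were 55.4%, 67.2% and 56.0%.

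The 10 genes fell into a fast and a slower set. IER3 kept 1.57% and 1.54% of its 0 h mean at 3 h in the 2 siControl libraries (log2 change -5.99, SE 0.288), EGR1 2.73% and 2.68% (-5.20, SE 0.261) and JUNB 3.59% and 2.60% (-5.02, SE 0.350). FOS went from 80 and 98 reads to 2 and 0 reads, a pooled 1.38% of the 0 h level (exact 95% interval 0.165 to 5.04%, counting error only). Among 13136 genes, 9 had a lower fitted change than FOS, 11 than IER3, 24 than EGR1 and 33 than JUNB.

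JUN kept 7.38% and 6.19% at 3 h (-3.89, SE 0.117), between the fast set and the rest. IER2 kept 12.9% ± 1.07, ATF3 15.0% ± 5.23, FOSL2 19.7% ± 2.69, MAFF 30.9% ± 2.13 and JUND 39.3% ± 1.08 (SD, n = 2 each). The AP-1 subunits thus spanned the whole range, with FOS and JUNB at one end and JUND at the other. Over the 0 to 3 h interval the half-life was 0.496 h for FOS, 0.499 h for IER3, 0.576 h for EGR1, 0.598 h for JUNB, 0.773 h for JUN, 1.02 h for IER2, 1.10 h for ATF3, 1.28 h for FOSL2, 1.77 h for MAFF and 2.23 h for JUND. With the equation of the study, averaged over the 3 h and 6 h points, the values were 0.663 h for IER3, 0.764 h for EGR1, 0.954 h for JUN and 2.07 h for JUND.

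The ATTTA copies can be set beside this order, but a relation between copies and loss was not tested. EGR1, with 1 copy (0.82 per kb), kept 2.71% ± 0.0344 at 3 h, and IER2, with none, kept 12.9% ± 1.07 (SD, n = 2). FOSL2, with 9 copies in its long UTR (1.85 per kb), kept 19.7% ± 2.69 (SD, n = 2). IER3 and FOS, with the densest copies, were also the fastest, and JUNB, next in density at 4 per kb, kept 3.1% ± 0.703. MAFF, whose printed window ends in overlapping copies as that of FOS does, kept 30.9% ± 2.13.

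**Figure D3:**
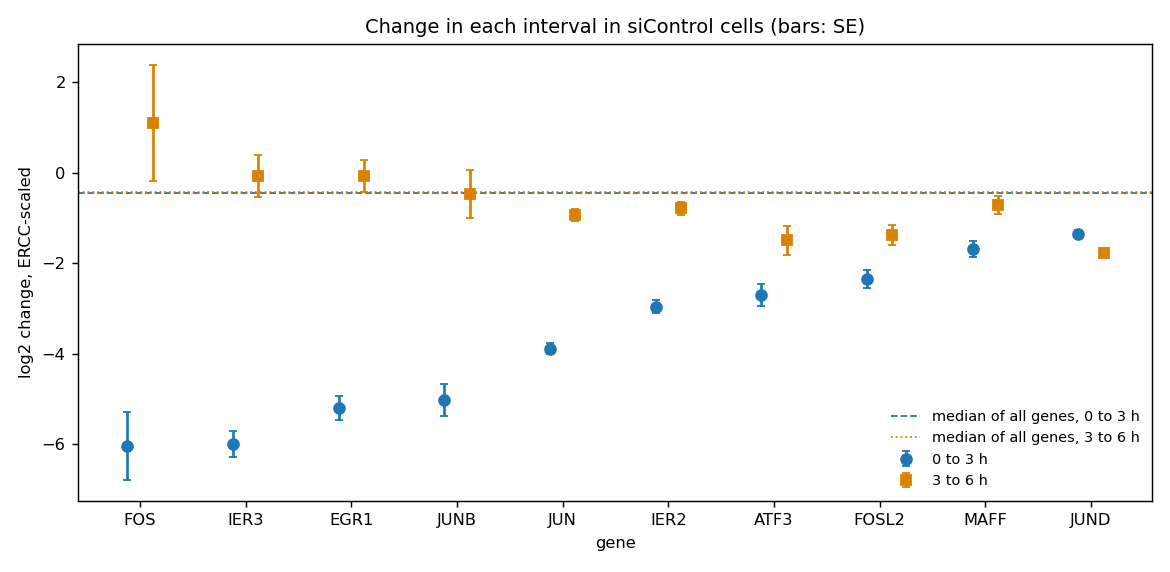
Log2 change (ERCC scale) of each gene in siControl cells from 0 to 3 h and from 3 to 6 h, with bars of 1 SE and lines at the medians of all tested genes (-0.44 and -0.42). For the genes at the left the second change lies near or above the line, and JUND at the right is the single gene with the larger fall after 3 h.

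The loss did not go on at the same rate. From 3 to 6 h, 6 of the 10 genes fell in siControl, where 65.0% of all genes were called in either direction. JUND fell by 1.76 on the log2 scale (SE 0.096), ATF3 by 1.49 (SE 0.314), FOSL2 by 1.38 (SE 0.220), JUN by 0.93 (SE 0.132), IER2 by 0.78 (SE 0.150) and MAFF by 0.72 (SE 0.196), with edgeR adjusted p of at most 0.000646. The MAFF call was lost without siControl 6 h replicate 2 (-0.44, edgeR adjusted p = 0.0993), on the TMM scale (-0.31, edgeR adjusted p = 0.214) and with library sizes as the scale (-0.43, edgeR adjusted p = 0.0807). The 4 genes of the fast set gave no call. IER3 was at 1.57% and 1.54% at 3 h and at 1.49% and 1.46% at 6 h (log2 change -0.07, SE 0.464, edgeR adjusted p = 0.894), EGR1 at 3.64% and 1.45% at 6 h (-0.08, SE 0.353, edgeR adjusted p = 0.853) and JUNB at 2.46% and 1.94% (-0.46, SE 0.533, edgeR adjusted p = 0.435). FOS had 6 and 1 reads at 6 h, a pooled 3.16% (exact 95% interval 1.25 to 6.64%). In the fast set the remaining reads were few, 18 and 22 for EGR1, 9 and 11 for IER3 and 10 and 9 for JUNB at 3 h.

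The shape of the curve was taken as the log2 change from 3 to 6 h minus that from 0 to 3 h, which is 0 for a constant rate and positive where the loss slows. It was called positive for 7 of the 10 genes in siControl, beside 10.9% of all genes. The values were 5.92 for IER3 (SE 0.702), 5.12 for EGR1 (SE 0.557), 4.55 for JUNB (SE 0.821), 2.96 for JUN (SE 0.219), 2.17 for IER2 (SE 0.251) and 0.97 for MAFF (SE 0.332), with edgeR adjusted p of 3.77e-15, 5.63e-18, 8.05e-07, 7.79e-39, 6.41e-16 and 0.0302. FOS was called as well, on 2 reads at 3 h and 7 at 6 h, and lost the call without siControl 3 h replicate 2 or 6 h replicate 1 (edgeR adjusted p = 0.193 and 0.294). The MAFF call was lost without siControl 0 h replicate 1, either 3 h library or 6 h replicate 1 (edgeR adjusted p of 0.0712 to 0.316), and also in DESeq2 (adjusted p = 0.0769), without a filter (edgeR adjusted p = 0.0678) and in a fit of siControl alone (edgeR adjusted p = 0.0632). The median shape of the 10 genes was 2.57, beside -0.03 over all genes.

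JUND ran the other way in all conditions. Its shape was -0.42 in siControl and -0.35, -0.29 and -0.39 in the knockdowns (in the order siIGF2BP1, siIGF2BP2, siIGF2BP3, SE 0.156 to 0.160), none of them called (edgeR adjusted p = 0.0652, 0.176, 0.215 and 0.102). Its half-life was 2.23 h from 0 to 3 h and 1.70 h from 3 to 6 h in siControl, against 0.773 h and 3.21 h for JUN. FOSL2 (0.97, SE 0.359, edgeR adjusted p = 0.0529) and ATF3 (1.22, SE 0.5, edgeR adjusted p = 0.0994) lay between and were not called in siControl.

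In the knockdown cells all 10 genes were called lower from 0 to 3 h in siIGF2BP1, siIGF2BP2 and siIGF2BP3. From 3 to 6 h, 7, 6 and 7 genes were called, beside 46.9%, 38.2% and 42.1% of all genes. On the TMM scale the siIGF2BP1 and siIGF2BP3 counts were 4 and 3, and without each library in turn they were 4 to 7 and 3 to 6. The shares of all genes just given belong to the fit of all libraries on the ERCC scale, and those of the other fits are not given here. On the ERCC scale the shape was called positive for 7, 7 and 6 genes, beside 10.8%, 17.8% and 11.3% of all genes. JUN, IER2, IER3 and EGR1 were called positive in all 4 conditions, with JUN at 2.96 to 3.56 (log2, SE 0.208 to 0.236). FOSL2 was called in the 3 knockdowns, with 2.03, 1.24 and 1.83 (SE 0.353 to 0.402). The siIGF2BP2 call of FOSL2 was lost without 3 h replicate 2 or 6 h replicate 2 (edgeR adjusted p = 0.0854 and 0.161), and that in siIGF2BP3 without 6 h replicate 1 (0.0967). JUNB, called in siControl, was called in siIGF2BP2 (5.29, SE 0.673) and not in siIGF2BP1 (0.72, SE 1.132, edgeR adjusted p = 0.86) or siIGF2BP3 (2.56, SE 1.091, edgeR adjusted p = 0.124). FOS was called in no knockdown, with 3.98, 0.05 and -0.76 (edgeR adjusted p = 0.42, 0.959 and 0.877). At 3 h and 6 h it had 3 and 2 reads in siIGF2BP1, 16 and 1 in siIGF2BP2 and 5 and 0 in siIGF2BP3. No SE is given for these FOS values, since the SE used here is unreliable at so few reads. MAFF had 1.21, 0.86 and 0.62, of which the last was not called (edgeR adjusted p = 0.332). ATF3 had 1.40, 0.98 and 2.38, of which the siIGF2BP2 value was not called (edgeR adjusted p = 0.0835). The MAFF call in siIGF2BP2 (TMM scale 0.58, edgeR adjusted p = 0.192) and the ATF3 call in siIGF2BP1 (1.32, 0.0506) were lost on the TMM scale. Both were also lost with library sizes as the scale, in DESeq2 and without a filter. Without 3 h replicate 2 the siIGF2BP1 values were 0.56 for MAFF and 0.89 for ATF3, and that of MAFF in siIGF2BP2 was 0.67. Whether a shape differed between conditions was not tested.

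**Figure D4:**
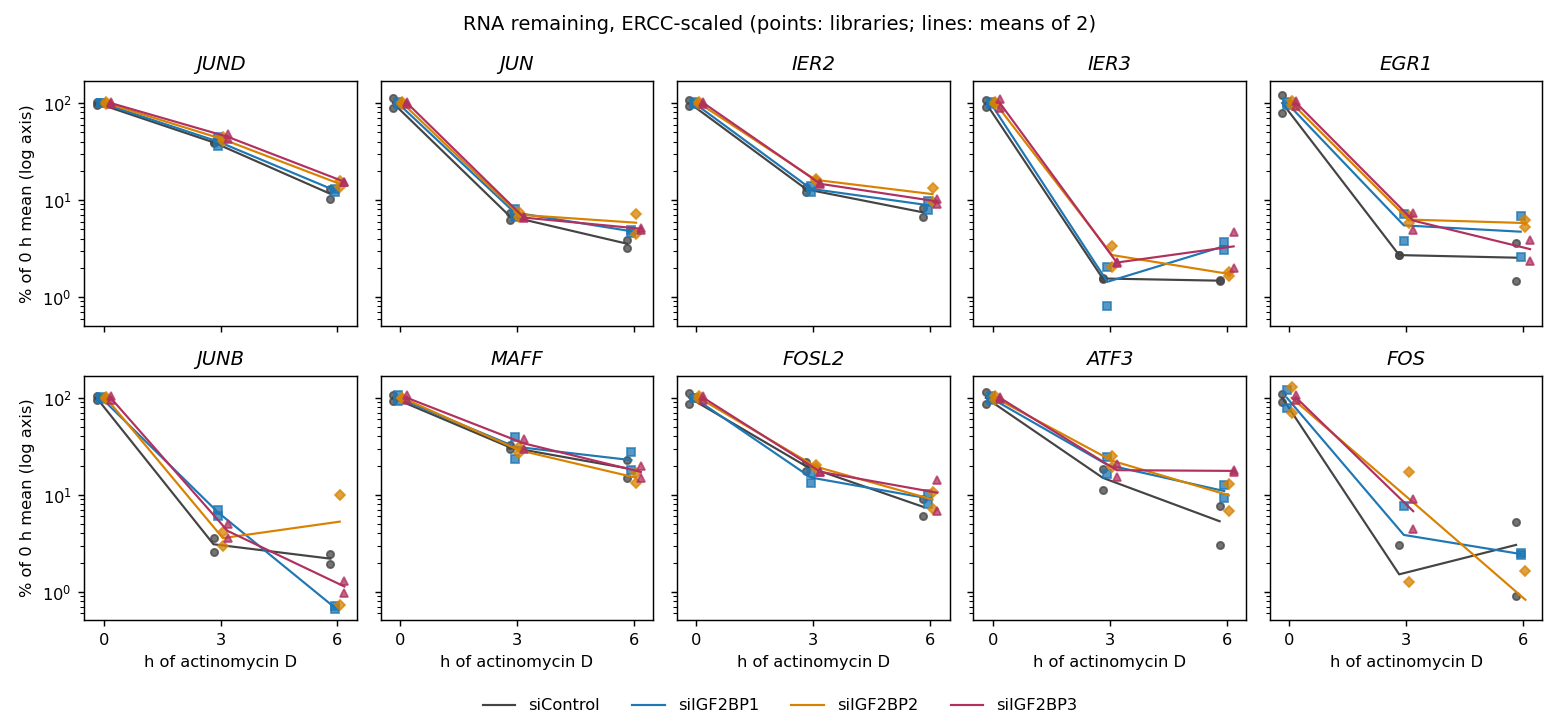
ERCC-scaled level at 0, 3 and 6 h as a percentage of the 0 h mean of the same condition (log axis), 1 panel per gene, with points for libraries and lines through the means of 2. Libraries without reads are not drawn. The lines bend at 3 h in IER3, EGR1 and JUN and stay straight in JUND, and the siIGF2BP3 line of ATF3 is flat after 3 h (15.4% and 20.6% at 3 h, 17.1% and 18.2% at 6 h).

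The values of JUNB, IER3 and FOS in the second interval rest on very few reads, and whether their change from 3 to 6 h differed between conditions was not tested. JUNB had 17 and 20 reads at 3 h and 2 and 2 at 6 h in siIGF2BP1, a pooled 6.62% (exact 95% interval 4.62 to 9.23%) and 0.688% (0.187 to 1.77%). In siIGF2BP2 it had 19 and 15 reads at 3 h and 34 and 3 at 6 h, so that the 2 libraries gave 9.86% and 0.733% of the 0 h mean. Without the library with 34 reads (6 h replicate 1) the siIGF2BP2 shape of JUNB fell from 5.29 to 2.57 and was not called (edgeR adjusted p = 0.122). IER3 rose in siIGF2BP1 from 10 and 4 reads at 3 h to 18 and 16 at 6 h (log2 change 1.21, SE 0.483, edgeR adjusted p = 0.0283), the single called rise among the 10 genes in any condition. It was lost without 3 h replicate 2 (0.69, edgeR adjusted p = 0.312) or 6 h replicate 1 (1.07, edgeR adjusted p = 0.132). FOS had 1 and 15 reads at 3 h in siIGF2BP2 and 1 and 0 at 6 h, and the call of a fall rests on the library with 15 reads (edgeR adjusted p = 0.881 without it). In siIGF2BP3 FOS had no read at 6 h in either library, which allows up to 7.74% of its 0 h level (upper limit of the exact 95% interval).

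Whether decay itself differed from siControl was tested as the difference of the log2 changes, knockdown minus siControl, where a positive value means less loss in the knockdown. From 0 to 3 h none of the 10 genes was called in edgeR, as were 0.0609%, 0.0457% and 0.0761% of all genes in siIGF2BP1, siIGF2BP2 and siIGF2BP3. Before adjustment 2, 2 and 1 of the 10 genes had an edgeR p under 0.05, beside 452, 299 and 519 of the 13136 genes tested. DESeq2 called none of the 10 genes. EGR1 kept 2.71% ± 0.0344 at 3 h in siControl against 5.48% ± 2.41, 6.29% ± 0.737 and 6.14% ± 1.76 in the knockdowns (SD, n = 2). The differences were 1.01 (SE 0.417), 1.21 (SE 0.379) and 1.25 (SE 0.403), with edgeR adjusted p = 1, 0.801 and 0.516, and they share the siControl libraries. In absolute CPM the 3 h libraries of EGR1 were at 0.442 and 0.436 in siControl and at 0.636 and 0.362 in siIGF2BP1. They were at 0.721 and 0.600 in siIGF2BP2, above both siControl libraries, and at 0.633 and 0.398 in siIGF2BP3. On the ERCC scale both siIGF2BP3 libraries (0.6377 and 0.4233) were also above siControl (0.4228 and 0.4153). How far the higher siControl level at 0 h accounts for the gap in percent was not tested.

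From 0 to 6 h, none of the 10 genes was called in siIGF2BP1, 1 in siIGF2BP2 and 1 in siIGF2BP3, beside 0.655%, 0.548% and 1.48% of all genes. Before adjustment 5, 6 and 4 of the 10 genes had an edgeR p under 0.05, beside 2290, 1768 and 3175 of the 13136 genes tested. DESeq2 called none of the genes to which it gave an adjusted p, which leaves out ATF3 in siIGF2BP3. The median difference of the 10 genes was 0.29, 0.49 and 0.39 (log2), beside 0.19, 0.17 and 0.22 over all genes. Of all genes called, 83 of 86, 70 of 72 and 194 of 195 were higher, so less loss in the knockdown was the common direction. Where libraries of JUN and ATF3 are said below to lie above others, the share of all genes that do so was not counted.

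JUN was the call in siIGF2BP2. At 6 h it kept 3.90% and 3.20% of the 0 h mean in siControl, 4.61% and 4.92% in siIGF2BP1, 4.48% and 7.19% in siIGF2BP2, and 4.96% and 5.16% in siIGF2BP3. All 6 knockdown libraries were above both siControl libraries, and the siIGF2BP2 pair was the widest. The difference was 0.73 in siIGF2BP2 (SE 0.163, edgeR adjusted p = 0.00538). It was 0.42 (SE 0.166, edgeR adjusted p = 0.18) after siIGF2BP1 and 0.51 (SE 0.177, edgeR adjusted p = 0.0937) after siIGF2BP3. Without siIGF2BP2 6 h replicate 2 it was 0.33 (edgeR adjusted p = 0.931), and it was also lost without siControl 0 h replicate 1 (0.55), siControl 6 h replicate 2 (0.59) or siIGF2BP2 0 h replicate 1 (0.70). On the TMM scale, which sets the bulk of genes to no change, it was 0.52 (edgeR adjusted p = 0.11), and DESeq2 did not call it (0.72, adjusted p = 0.143).

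ATF3 was the call in siIGF2BP3. It kept 7.61% and 3.07% at 6 h in siControl, 12.7% and 9.21% in siIGF2BP1, 6.79% and 13.0% in siIGF2BP2, and 17.1% and 18.2% in siIGF2BP3. The siIGF2BP3 libraries were above all others, and at 43 and 41 reads they compare with 39 and 15 reads in siControl. From 3 to 6 h ATF3 changed by -1.49 (log2) in siControl and by -0.06 in siIGF2BP3 (SE 0.290, edgeR adjusted p = 0.893), and the shape in siIGF2BP3 was 2.38 (SE 0.474, edgeR adjusted p = 1.31e-05). The 0 to 6 h difference was 1.70 (SE 0.385, edgeR adjusted p = 0.00593), beside 1.01 after siIGF2BP1 (SE 0.397, edgeR adjusted p = 0.18) and 0.89 after siIGF2BP2 (SE 0.377, edgeR adjusted p = 0.285). It was lost without siControl 0 h replicate 1 (1.49, edgeR adjusted p = 0.129), without siControl 6 h replicate 2, the library with 15 reads (1.2, edgeR adjusted p = 0.223), on the TMM scale (1.48, edgeR adjusted p = 0.134) and with library sizes as the scale (edgeR adjusted p = 0.0909). Whether siIGF2BP3 differs in this from the other 2 knockdowns was not tested.

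Of 39 other immediate early and early genes 29 were measured. All 29 fell from 0 to 3 h in each of the 4 conditions, where 55.4% to 67.2% of all genes were called lower. The median log2 change was -3.72 in siControl, beside -0.44 over all genes. The shape was called positive for 23, 25, 24 and 24 of them, beside 10.9%, 10.8%, 17.8% and 11.3% of all genes. In siControl the largest falls were those of TRIB1, a pseudokinase (-6.01, SE 0.159), DUSP6, an ERK phosphatase (-5.75, SE 0.171), SGK1, a serum-induced kinase (-5.58, SE 0.321), and CSRNP1 (-5.45, SE 0.231). At 0 h, 3 were higher and 2 lower in siIGF2BP1, 4 higher and 1 lower in siIGF2BP2, and 0 higher and 7 lower in siIGF2BP3, where 15.9%, 12.1% and 9.39% of all genes were called in either direction. The median log2 differences were 0.00, 0.09 and -0.13, beside -0.12, -0.05 and -0.28 for the 10 genes and 0.01, 0.02 and 0.00 over all genes. DUSP6, which is induced by ERK signalling, was lower in all 3 (log2 -0.94, -0.88 and -0.63, SE 0.129 to 0.130, edgeR adjusted p of at most 0.00075), with the same control libraries in each. BTG2 was higher in siIGF2BP1 (0.62, SE 0.099) and siIGF2BP2 (0.45, SE 0.098), and CCN1, KLF6 and TRIB1 were lower in siIGF2BP3 (-0.68, -0.33 and -0.36).

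Of 30 other leucine zipper genes 25 were measured. From 0 to 3 h 22, 22, 24 and 23 of them fell in siControl, siIGF2BP1, siIGF2BP2 and siIGF2BP3, beside 61.3%, 55.4%, 67.2% and 56.0% of all genes. The median log2 change in siControl was -1.40, beside -0.44 over all genes. The shape was called positive for 12, 10, 11 and 10, beside 10.9%, 10.8%, 17.8% and 11.3% of all genes. The largest falls in siControl were those of the stress factor DDIT3 (-4.13, SE 0.230), BATF2 (-3.20, SE 0.318), CEBPB (-3.20, SE 0.133) and CEBPA (-2.92, SE 0.099), the last 2 being liver-enriched factors. At 0 h 3 were higher in siIGF2BP1 and 1 in siIGF2BP2, and none was called in siIGF2BP3 (median log2 difference -0.01). In these comparisons 15.9%, 12.1% and 9.39% of all genes were called in either direction.

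For the genes upstream and downstream, the counts at 0 h stand beside the same 15.9%, 12.1% and 9.39% of all genes called in siIGF2BP1, siIGF2BP2 and siIGF2BP3, and the median 0 to 3 h changes in siControl beside -0.44 over all genes. Of 26 MAPK and serum response factor pathway genes 24 were measured, with 5 higher and 1 lower at 0 h in siIGF2BP1, 2 and 3 in siIGF2BP2 and 2 and 1 in siIGF2BP3, and a median 0 to 3 h change of -0.38 in siControl. MAP2K2, which encodes an ERK kinase, was 0.27, 0.19 and 0.17 higher (log2, SE 0.046 each). All 26 AU-rich element binding and deadenylation genes were measured, with a median 0 to 3 h change of -0.73 in siControl and, at 0 h, 6 higher in siIGF2BP1, 3 higher and 1 lower in siIGF2BP2 and 4 higher and 1 lower in siIGF2BP3, KHSRP among the higher in all 3 (0.25, 0.21 and 0.28, SE 0.037 each). ZFP36, whose product binds AUUUA repeats, itself fell by 4.84 from 0 to 3 h in siControl (log2, SE 0.243). Of 22 AP-1 or EGR1 target genes 16 were measured, with a median 0 to 3 h change of -0.55 in siControl and, at 0 h, 4 higher and 3 lower in siIGF2BP1, 1 and 1 in siIGF2BP2 and 1 higher and 6 lower in siIGF2BP3. F3, tissue factor, was 0.32 higher in siIGF2BP1 (SE 0.111) and lower in siIGF2BP3 (-0.47, SE 0.116).

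The genes most like a member over the 12 groups were found from the mean absolute difference of ERCC-scaled log2 profiles set to 0 at siControl 0 h. For EGR1 they were BHLHE40 (0.353), CSRNP1 (0.371) and IER5L (0.389). For JUN they were FAM200A (0.179), PLK2 (0.191) and TBCC (0.226), and for ATF3 ZFX (0.232), ZNF816 (0.232) and ZNF800 (0.239). The profile of FOS, which rests on 0 to 15 reads per library after 0 h, was nearest to TIGD1 (0.309), GATA6 (0.314) and FBXO34 (0.348).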

How the data were processed

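RNA was measured in 24 HepG2 libraries (4 siRNA conditions, 3 times of actinomycin D, 2 libraries each). Per the labels and the methods, the authors added ERCC spike-in at 0.02 µl per µg of total RNA, selected polyadenylated RNA, made stranded libraries, read single ends of 100 bp, trimmed with Trimmomatic 0.39, aligned to hg38 with HISAT2 2.1.0 and counted with HTSeq on GENCODE (the submitters' processing notes give the versions). The deposited values are raw read counts per gene, not normalized. The methods name GENCODE release 29 and a strand-aware alignment (RF). The strand and multi-mapping settings of the counting are not given in the sources used here. HTSeq summary rows (13.551% to 17.064% of each library) and 45 rows of the Y pseudoautosomal copies were left out. Samples were grouped by the labels alone. PCR duplicates could not be removed, so intervals cover counting error only.

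From the counts, edgeR 4.0.16 (R 4.3.3) quasi-likelihood tests were run on 13136 genes (CPM no lower than 1 in 2 or more libraries), with a mean for each of the 12 groups (12 residual degrees of freedom), two-sided, with Benjamini-Hochberg adjustment over all genes and a threshold of 0.05. TMM set the scale at 0 h and the ERCC total set it for decay. edgeR also pooled the spread over genes, so the tests used more degrees of freedom than these 12. On the ERCC scale the p-values were close to those of a normal distribution at the log2 value over its SE. A gene's own spread between its 2 libraries thus had little or no weight in the decay tests. The edgeR SE was the absolute log2 value over the square root of the F statistic, an approximation that is unreliable at few reads. Spike-in added to purified RNA does not correct for cell number or recovery. Half-life was ln2/K with K from 2 group means, and for the equation of the study the mean K of the 3 h and 6 h points, with the ERCC total in place of the authors' linear fit to attomole. Alternatives were other scales, DESeq2 1.42.0, other filters, replicate blocks, fits of the compared conditions, a straight slope and fits without each library. The tests were also tested on simulated data. The 2 libraries of a group did not look like a library deposited in duplicate, with a chi-square of 3.25 to 8.56 per degree of freedom between replicates. Libraries of different groups were not compared in this way. UTR motifs came from GENCODE v44 canonical transcripts, a later release than the authors used, and promoters from RefSeq. The likeness profiles used a pseudocount of 0.1.

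The members and lists were chosen with earlier results of these data known. All 10 members are named, other lists give counts and at most 4 called genes with the largest change per comparison, and likeness is given for EGR1, FOS, JUN and ATF3. BTG2 and SRF stand in 2 lists. METTL1 knockdown libraries were not analysed here.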

Additional observations from a re-analysis of the deposited data

Results flagged for a closer look

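Both values below are differences of the 0 to 6 h change between a knockdown and siControl on the ERCC scale that passed the test of the difference itself, with 2 libraries in each group. JUN kept more RNA in siIGF2BP2 than in siControl, by 0.73 on the log2 scale (SE 0.163, edgeR adjusted p = 0.00538), with both siIGF2BP2 libraries at 6 h (4.48% and 7.19% of 0 h) above both siControl libraries (3.90% and 3.20%). Without siIGF2BP2 6 h replicate 2 it was 0.33 (edgeR adjusted p = 0.931), and the call was also lost on leaving out any of 3 other libraries, on the TMM scale (0.52, edgeR adjusted p = 0.11), in DESeq2 and with a straight slope. ATF3 kept more RNA in siIGF2BP3 than in siControl, by 1.7 on the log2 scale (SE 0.385, edgeR adjusted p = 0.00593), with 17.1% and 18.2% against 7.61% and 3.07%. Without siControl 6 h replicate 2 it was 1.2 (edgeR adjusted p = 0.223), and the call was also lost without siControl 0 h replicate 1, on the TMM scale (1.48, edgeR adjusted p = 0.134), with library sizes as the scale and with a straight slope, while DESeq2 gave no adjusted p. Over all genes, 70 of the 72 calls in siIGF2BP2 and 194 of the 195 in siIGF2BP3 were also higher. The decay tests pooled the spread over genes and gave little or no weight to the spread within these pairs. Groups of 2 libraries allow no test for a library that stands apart, so none was made.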

How the results depend on the processing

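The 10 falls from 0 to 3 h kept their calls in all 4 conditions under every alternative run and without each library (10 to 10), except that FOS did not pass the filter at a CPM minimum of 5, nor in the 3 knockdowns when only the compared conditions were fitted, which left 9 falls, and the counts of 0 for the 0 to 3 h differences stayed at 0 (0 to 0). Over the 108 called values of single genes, 1335 alternative values were computed, of which 1210 kept the direction and the call, 125 kept the direction but lost the call and 0 reversed. The 0 to 3 h falls are among these called values and lost no call, so all 125 losses fall on the other comparisons. The cause of these losses was not tested.

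At 0 h the ERCC scale gave 1 called gene in siIGF2BP1 and 1 in siIGF2BP3 against siControl, and 1 each in siIGF2BP2 and siIGF2BP3 against siIGF2BP1. DESeq2 gave 1 in siIGF2BP2 and 1 in siIGF2BP3 against siControl. Fits of only the compared conditions gave 5 and 5, and the share of all genes called in those fits is not given here. For siIGF2BP3 against siIGF2BP1 library-size scaling gave 1 and a CPM minimum of 5 gave 1. From 3 to 6 h the TMM scale gave 4 in siIGF2BP1 and 3 in siIGF2BP3, and library-size scaling 4 in siIGF2BP3. For the 0 to 6 h difference the TMM scale, DESeq2 and a straight slope gave 0 in siIGF2BP2 and 0 in siIGF2BP3, and library-size scaling 0 in siIGF2BP3. DESeq2 gave no adjusted p for ATF3 there. Shares of all genes called are not given for any alternative in this section, so these counts cannot be set against a background.

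Without each library in turn, the counts at 0 h ranged 0 to 1 (siIGF2BP1), 0 to 1 (siIGF2BP2) and 0 to 2 (siIGF2BP3) against siControl, 0 to 2 (siIGF2BP2 against siIGF2BP1), 1 to 1 (siIGF2BP3 against siIGF2BP1) and 1 to 2 (siIGF2BP3 against siIGF2BP2). From 3 to 6 h they ranged 5 to 6, 4 to 7, 5 to 7 and 3 to 6 in siControl, siIGF2BP1, siIGF2BP2 and siIGF2BP3, for the shape 6 to 9, 6 to 7, 5 to 7 and 5 to 6, and for the 0 to 6 h difference 0 to 2, 0 to 5 and 0 to 3. The lone library of such a group was assumed to vary like the others.

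Libraries of the same replicate number deviated together within siIGF2BP3 (r = 0.276, 0.224 and 0.295 between its times) but in no other condition (r of -0.028 to 0.057), and within times r was -0.087 to 0.246, over 0.1 in 3 of 18 pairs of groups. As this did not hold in siControl, the numbers were not taken as pairs. A replicate block over all libraries moved no count. A replicate block within condition moved 2 other counts by at most 2 genes and gave 2 called genes for the 0 to 6 h difference in siIGF2BP2 and 3 in siIGF2BP3, where ATF3 kept its call. The share of all genes called in that fit is not given here, so the rise is not read as a result about these genes.

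Depth limits FOS, JUNB and IER3 after 0 h, where groups held 0 to 42 reads, and 2 libraries a group limit all tests.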
